A study of Mus musculus with 4 samples.

Results

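Elastic fibre genes were followed through the cells of the Achilles tendon of the mouse. The 10 genes are the genes of elastin (Eln), fibrillin-1 (Fbn1), microfibril-associated proteins 5 and 4 (Mfap5, Mfap4), fibulins 1, 2 and 5 (Fbln1, Fbln2, Fbln5), the fibulin-like proteins fibulin-3 (Efemp1) and fibulin-4 (Efemp2), and Emilin1. The list was set by name, and all 10 members are among the 15746 genes of the table. Single-cell RNA sequencing (10x Genomics Chromium, version 3 of the 3-prime chemistry) was used by the study to catalogue the populations of cells in tendon. All 4 libraries are of 1 kind, Achilles tendon of untreated male C57Bl/6 mice aged 6 weeks, and the number of mice behind a library is not given in the sources used here, so the p-values below measure only the spread between these libraries. The 1191 cells carry 13 population names given by the authors, and those names are the groups compared.

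An elastic fibre has a core of crosslinked elastin on a scaffold of microfibrils, which are beaded filaments made mainly of fibrillin. Microfibril-associated proteins bind the scaffold, fibulins 4 and 5 help to bring tropoelastin to it, lysyl oxidases crosslink the elastin, and EMILIN-1 sits where elastin meets the microfibrils. In tendon, elastic fibres lie between the collagen bundles and around cells, and they are also a main part of vessel walls. Microfibrils occur without elastin too, where they hold latent TGF-beta through its binding proteins.

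Fibulins 1 and 5 were ordered oppositely between bursal fibroblasts and tendon fibroblasts 1 and 2, and for this reason the stretch of 250 bases before an annotated start of each is shown. The sequences are from RefSeq on GRCm38.p6, read 5′ to 3′ on the strand of the gene, with motif matches in capitals. The first lies at chr15:85205699-85205948 on the plus strand and the other at chr12:101819120-101819369 on the minus strand, and neither overlaps an annotated exon of GENCODE. For Fbln5 the start is that of RefSeq and was not found as the first bases of a GENCODE transcript.
Fbln1: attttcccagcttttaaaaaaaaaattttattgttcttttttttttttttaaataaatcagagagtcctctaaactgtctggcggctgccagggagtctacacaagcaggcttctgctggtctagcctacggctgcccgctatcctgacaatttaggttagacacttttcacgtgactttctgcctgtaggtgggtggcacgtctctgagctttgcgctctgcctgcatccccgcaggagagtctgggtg
Fbln5: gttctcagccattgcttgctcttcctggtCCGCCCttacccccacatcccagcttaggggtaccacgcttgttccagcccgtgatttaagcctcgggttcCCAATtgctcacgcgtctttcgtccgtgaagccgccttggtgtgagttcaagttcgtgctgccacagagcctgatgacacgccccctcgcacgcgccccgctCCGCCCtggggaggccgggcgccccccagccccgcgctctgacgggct
The Fbln1 stretch has 46.4% G and C and the Fbln5 stretch 65.2%, against a median of 52.4% over 32851 such stretches of mouse genes. Both strands were searched for the GC box (GGGCGG), the TATA box (TATAAA), the AP-1 site (TGANTCA), the SMAD box (GTCTAGAC), the CCAAT box (CCAAT) and the CArG box. The Fbln5 stretch holds 2 GC boxes, at -221 and -48 from the start on the opposite strand, and a CCAAT box at -150, while the Fbln1 stretch holds none of these letters. RefSeq has another start for each gene with the contrast the other way: the second Fbln1 stretch (62.4% G and C) holds a GC box at -11, and the second Fbln5 stretch (49.6%) holds no match. GC boxes are found in 32.7% of all such stretches and CCAAT boxes in 33.8%, so the matches are a description only. RefSeq entries were found for 7 of the 10 members, all but Eln, Mfap4 and Mfap5.

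Depth per cell was similar between libraries, and the number of cells was not: libraries 1, 2, 3 and 4 hold 580, 246, 256 and 109 cells. No barcode occurs in more than 1 library. A level is given as UMIs (unique molecular identifiers, which count each captured molecule once) per 1000000 UMIs of the same population in the same library (CPM), for populations of 5 or more cells in that library. Tendon fibroblasts 3, with 45 of 51 cells in library 1, and endothelial cells 3, with 26 of 36, have such a sum in library 1 alone and enter no test. Marker lists were checked against the names. The 6 tendon fibroblast markers summed to 24995 to 75631 CPM in tendon fibroblasts 1 to 3 and to 783 to 4706 CPM in bursal fibroblasts. The 5 pericyte and smooth muscle markers summed to 12638 to 20558 CPM in pericytes, the 3 venous markers to 1121 to 3498 CPM in endothelial cells 2, and the 3 lymphatic markers to 4689 CPM in endothelial cells 3 and 1554 to 1747 CPM in immune cells. The Schwann cell marker Sox10 was found in 37 of 49 cells of nerve cells 1, 39 of 46 of nerve cells 2 and 14 of 32 of nerve cells 3. Library 1 stands apart for tendon fibroblasts 2, and member results that change without it are given without it as well. Immune cells serve as the measure of free RNA, because a droplet can take up molecules of other cells.

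Which cells hold the transcripts differed from gene to gene. Of the 16103 UMIs of the 10 genes, tendon fibroblasts 1 to 3 held 45.3% ± 30.3 (SD, n = 4 libraries). The share was 59.7%, 9.38%, 78.8% and 33.4% in libraries 1 to 4. Pooled over all libraries these cells held 53.1% of the members' UMIs, are 31.9% of the cells and hold 34.0% of all UMIs. Their number differed between libraries: tendon fibroblasts 1, 2 and 3 had 9, 2 and 3 cells in library 2, and 83, 78 and 1 in library 3. In a sum, fewer cells with a transcript and less of it per cell cannot be told apart. Endothelial cells held 36.8% ± 19.7, pericytes 8.26% ± 6.01, nerve cells a mean of 5.30% (1.14% to 15.8%) and bursal fibroblasts 4.08% ± 3.85. Fbln1 and Mfap4 were transcripts of tendon fibroblasts almost alone, with 99.0% ± 1.77 and 99.1% ± 1.54 of their UMIs there (Mfap4, n = 3 libraries, since library 4 has no UMI of it). Elastin itself was not: endothelial cells held a mean of 66.3% of its UMIs (45.9% to 76.7% over libraries), pericytes 18.2% ± 8.21 and tendon fibroblasts 12.3% ± 13.7.

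**Figure D1:**
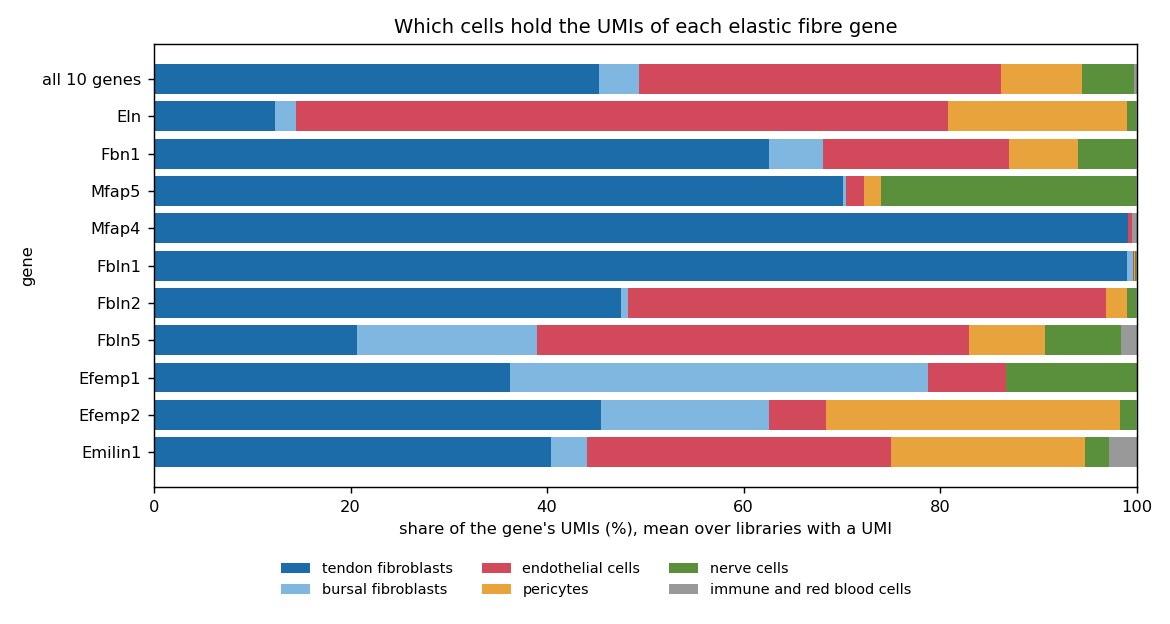
Share of each gene's UMIs (%, x axis, linear from 0) held by 6 classes of cells, as the mean over the libraries that have a UMI of the gene; the top bar sums all 10 genes. Tendon fibroblasts hold nearly all of Fbln1 and Mfap4 (99.0% and 99.1%), and endothelial cells most of Eln (66.3%).

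**Figure D2:**
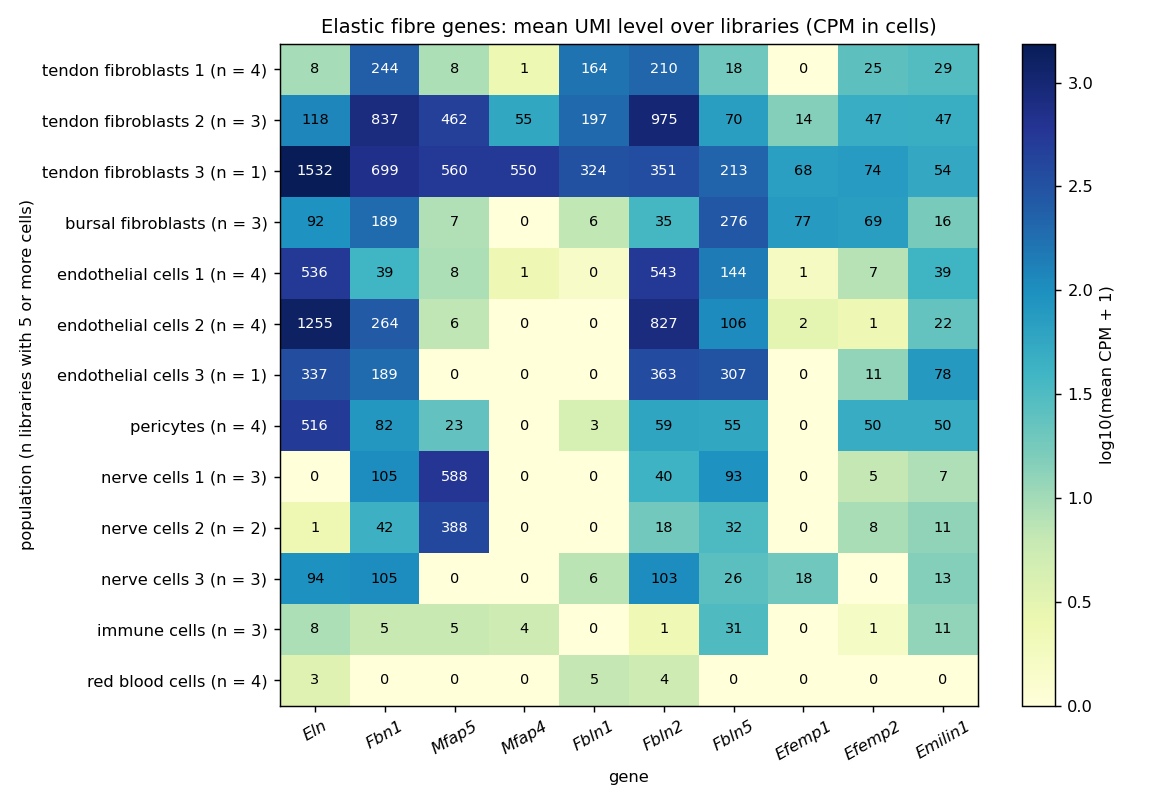
Mean level (CPM, printed in each cell; colour on a log10 scale of mean CPM + 1) of the 10 genes in the 13 populations, with the number of libraries in each mean. Eln is high in tendon fibroblasts 3 and endothelial cells 2 and near 0 in tendon fibroblasts 1, and Mfap5 is high in tendon fibroblasts 2 and 3 and in nerve cells 1 and 2.

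Elastin (Eln, chr5:134702593-134747323 on the minus strand of GRCm38) is the protein that lets a fibre recoil. In endothelial cells 2, the venous population, Eln stood at 1311, 1133, 1346 and 1229 CPM in libraries 1 to 4. Endothelial cells 1, in which 3 arterial markers summed to a mean of 276 CPM (372 CPM in nerve cells 1 and 224 CPM in nerve cells 2), had 407, 490.5, 623 and 622 CPM, and pericytes had 730.0, 726, 296 and 314 CPM. The 4 values of endothelial cells 2 lie above all 8 of the other vessel populations, whose ranges overlap. Tendon fibroblasts 3 had the highest level of all at 1532 CPM, in library 1 only. Tendon fibroblasts 2 had 313, 24.4 and 16.1 CPM in libraries 1, 3 and 4, so that library 1 lies more than 10-fold above the others. Tendon fibroblasts 1, the largest population of fibroblasts, had 8.47 ± 2.52 CPM (n = 4), from 16 UMIs in 173 cells, below every library of tendon fibroblasts 2 and of bursal fibroblasts (135, 120 and 21.4 CPM in libraries 1, 3 and 4). In library 4, tendon fibroblasts 1 and 2 had 2 UMIs of Eln each, those of tendon fibroblasts 2 in 1 of 9 cells. Endothelial cells 3 had 337 CPM in library 1. Nerve cells 1 had 0 of 300029 UMIs, which allows up to 10.0 CPM. Immune cells had a mean of 7.73 CPM (0 to 23.2 over 3 libraries), a range that holds all values of tendon fibroblasts 1.

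Elastin transcripts were found in most cells of the vessel populations. After thinning every cell to 2400 UMIs, so that depth does not set the share, Eln was found in 58 of 69 endothelial cells 2 (84.1%, exact 95% interval 73.3 to 91.8), in 65 of 104 pericytes (62.5%) and in 94 of 176 endothelial cells 1 (53.4%). Immune cells, with a median of 7108 UMIs against 8322, 9188 and 7343 in these populations, had 0 of 87. Without thinning the shares were 94.6%, 83.2%, 72.1% and 1.09%. Pericytes carried RNA of endothelial markers, with 4 markers summed at 300 to 1143 CPM against 4071 to 4874 CPM in endothelial cells 1. The endothelial gene Mmrn2 stood at 89.2 CPM in pericytes against 478 CPM in endothelial cells 1, while Eln stood at 516 against 536 CPM.

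Fibrillin-1 (Fbn1, chr2:125300594-125507993, minus strand), the main protein of microfibrils, was spread over more populations. Tendon fibroblasts 2 had 1761, 323 and 427 CPM in libraries 1, 3 and 4, and tendon fibroblasts 3 had 699 CPM in library 1. Tendon fibroblasts 1 were close together at 224, 313, 240 and 200 CPM. In the vessels, endothelial cells 2 had 262, 226, 269 and 297 CPM, while endothelial cells 1 had 34.6, 66.5, 36.9 and 16.1 CPM, with no overlap between the 2 populations. Bursal fibroblasts had 296, 99.6 and 171 CPM, within reach of tendon fibroblasts 1 and of endothelial cells 2. Nerve cells 1 (105 ± 40.3 CPM, n = 3) and pericytes (82.4 ± 21.6, n = 4) followed with overlapping ranges, and immune cells had 5.02 ± 7.15 CPM. In order of mean level, the ranges of tendon fibroblasts 2 and 3 overlap, as do those of endothelial cells 2 and tendon fibroblasts 1. The ranges also overlap at each step from endothelial cells 3 through bursal fibroblasts, nerve cells 1 and nerve cells 3 to pericytes. Below these, nerve cells 2 overlap endothelial cells 1, and immune cells overlap red blood cells.

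Mfap5 encodes MAGP-2, which binds fibrillin. Its transcripts (chr6:122505845-122529290, plus strand) were found in tendon fibroblasts 2 and 3 and in 2 of the 3 nerve populations. Nerve cells 1 had 567, 625 and 572 CPM in libraries 1, 2 and 3, and nerve cells 2 had 242 and 533 CPM in libraries 1 and 2. In tendon fibroblasts 2 it stood at 1087, 250 and 48.3 CPM, and tendon fibroblasts 3 had 560 CPM in library 1. Nerve cells 3 had 0 of 138770 UMIs in 32 cells. Tendon fibroblasts 1 and bursal fibroblasts had 7.62 ± 7.11 and 7.33 ± 12.7 CPM, and immune cells had 5.02 ± 7.15 CPM.

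The nerve signal was present in most cells of its populations. Mfap5 was seen in 37 of 49 cells of nerve cells 1 and in 27 of 46 cells of nerve cells 2. After thinning it was found in 53.2% of nerve cells 1 (25 of 47, exact 95% interval 38.1 to 67.9) and 40.0% of nerve cells 2, against 1.15% of immune cells. These cells carry the Schwann cell transcript Sox10 (293 CPM in nerve cells 1 and 259 CPM in nerve cells 2). Fibroblast transcripts were far lower there than in tendon fibroblasts 2. Decorin (Dcn) stood at 50.0 and 28.4 CPM against 23618 CPM, Col1a1 at 1089.9 and 1022 CPM against 44043 CPM, and Col3a1 at 313 and 293 CPM against 21729 CPM. Immune cells had 72.0 CPM of Dcn, 91.8 CPM of Col1a1 and 36.7 CPM of Col3a1, so only Dcn was below their level in the nerve cells. Over the same pooled cells Mfap5 stood at 597 CPM in nerve cells 1, 431 CPM in nerve cells 2 and 601 CPM in tendon fibroblasts 2. Nerve cells 3, without a UMI of Mfap5, had 115 CPM of Dcn and 872 CPM of Col1a1.

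Mfap4 (chr11:61485431-61488900, plus strand), whose protein binds fibrillin and elastin, was found in few cells. Of its 355 UMIs, 353 were in tendon fibroblasts. Tendon fibroblasts 3 had 550.2 CPM in library 1, and after thinning 19 of 46 of these cells (41.3%) held a UMI of it. In tendon fibroblasts 2 its level was 83.2, 82.5 and 0 CPM in libraries 1, 3 and 4, and all 136 UMIs there were in 16 of 156 cells. Tendon fibroblasts 1 had 4 UMIs in 173 cells. Library 4 has no UMI of Mfap4 in any cell and library 2 has 50 UMIs in 1 cell, a tendon fibroblast 3. The sources used here do not say if genes were filtered library by library.

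**Figure D3:**
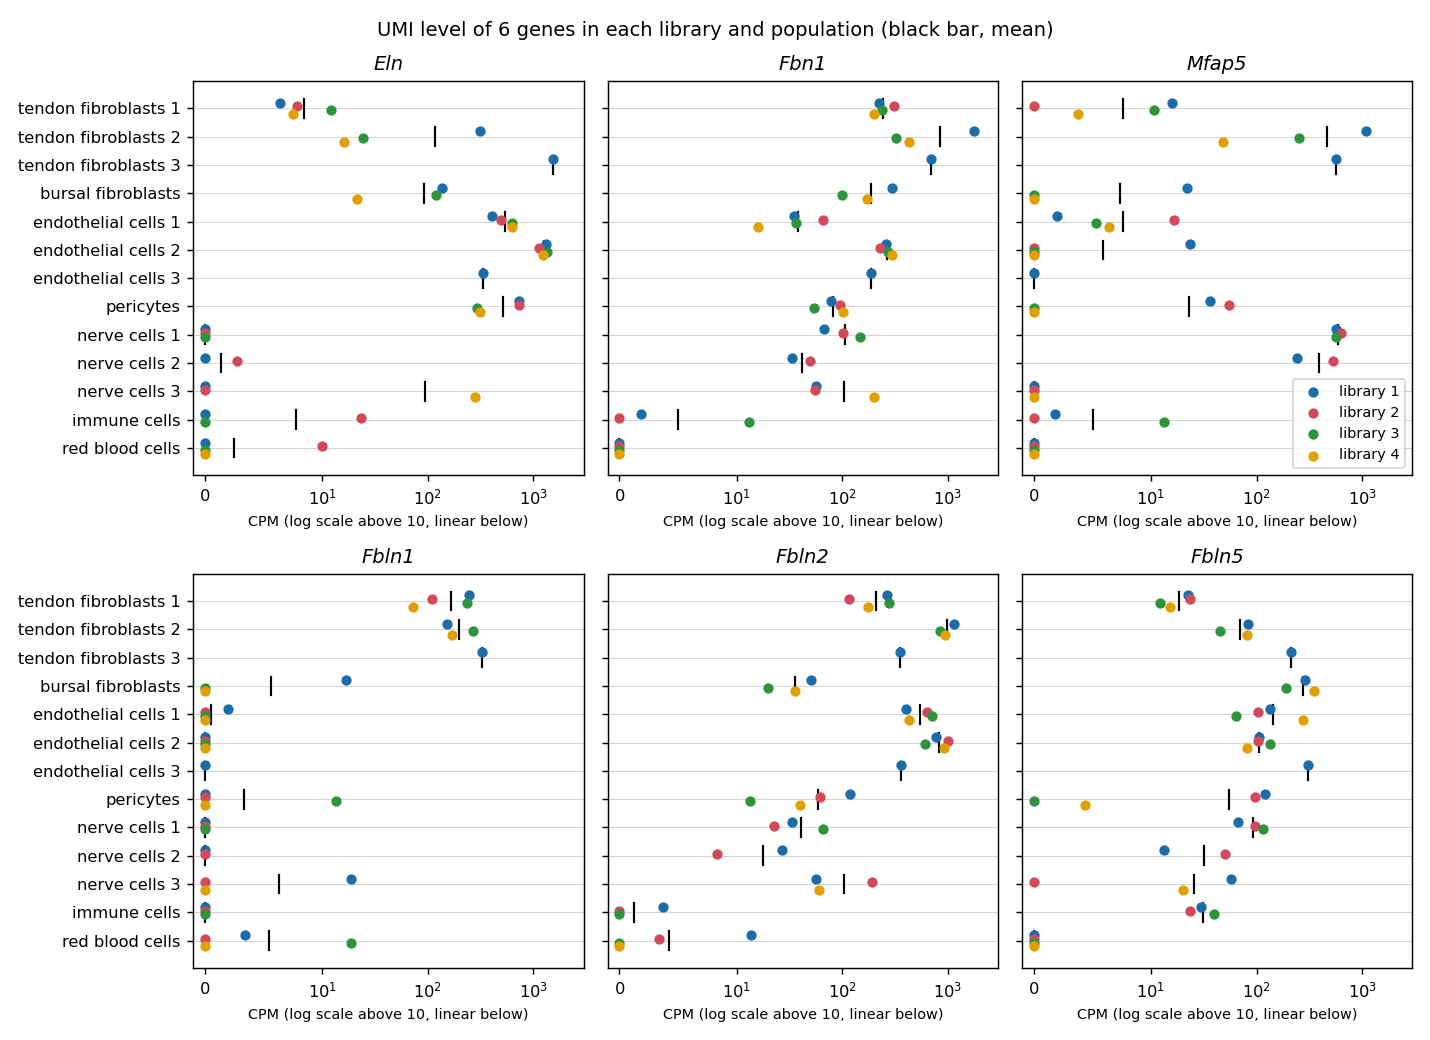
Level (CPM, x axis, log scale above 10 and linear below) of Eln, Fbn1, Mfap5, Fbln1, Fbln2 and Fbln5 in each library (coloured points) and population (rows), for sums of 5 or more cells; black bars are means. The points of Mfap5 in nerve cells 1 lie between 567 and 625 CPM, and those of Fbln1 are near 0 outside the tendon fibroblasts.

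Fibulin-1 (Fbln1, chr15:85205949-85286535, plus strand), a glycoprotein of elastic fibres and basement membranes, was found almost wholly in the 3 tendon fibroblast populations. Tendon fibroblasts 1 had 243, 109, 233 and 71.7 CPM, tendon fibroblasts 2 had 152, 269 and 169 CPM in libraries 1, 3 and 4, and tendon fibroblasts 3 had 324 CPM. The ranges of tendon fibroblasts 1 and 2 overlap. Bursal fibroblasts had 16.9, 0 and 0 CPM (10 UMIs). Endothelial cells 2, with 0 of 834104 UMIs, allow up to 3.60 CPM, and immune cells, with 0 of 708393, up to 4.23 CPM. After thinning, 34.8% of tendon fibroblasts 1 (56 of 161) and 39.2% of tendon fibroblasts 2 (58 of 148) held a UMI.

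Fibulin-2 (Fbln2, chr6:91212455-91272540, plus strand), which binds fibrillin, elastin and basement membrane proteins, was shared between fibroblasts and endothelium. Its level in tendon fibroblasts 2 was 1151, 840.5 and 934 CPM in libraries 1, 3 and 4. Tendon fibroblasts 1 were lower in every library, at 269, 117, 276 and 177 CPM. Endothelial cells 2 had 769, 1001, 605 and 932 CPM, overlapping tendon fibroblasts 2, and endothelial cells 1 had 399.5, 632, 713 and 429 CPM. Bursal fibroblasts had 35.4 ± 15.4 CPM (n = 3) and pericytes 58.6 ± 45.3 (n = 4). Tendon fibroblasts held 47.5% ± 32.3 of its UMIs and endothelial cells 48.6% ± 30.7.

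Fibulin-5 (Fbln5, chr12:101746565-101819055, minus strand) brings tropoelastin to the microfibril and binds integrins. Among fibroblasts it was highest in bursal fibroblasts, where Fbln1 was near 0, and next in tendon fibroblasts 3, where Fbln1 was highest (324 CPM). Bursal fibroblasts had 289, 189 and 349 CPM in libraries 1, 3 and 4, and tendon fibroblasts 3 had 213 CPM, while tendon fibroblasts 2 had 83.2, 45.3 and 80.6 CPM and tendon fibroblasts 1 had 22.3, 23.4, 12.1 and 15.1 CPM. None of these 3 ranges with several libraries overlap. Immune cells, the measure of free RNA, had 30.8 ± 8.28 CPM (23.2 to 39.6), above the mean of tendon fibroblasts 1 (18.2 CPM). Endothelial cells 3, the lymphatic population, had 307 CPM in library 1, and 56.2% of its thinned cells (18 of 32) held a UMI, against 4.60% of immune cells. Endothelial cells 1 had 134, 104, 63.3 and 274 CPM and endothelial cells 2 had 105, 104, 135 and 81.0 CPM, with overlap. In pericytes the libraries fell apart, with 120 and 96.2 CPM in libraries 1 and 2 and 0 and 4.42 CPM in libraries 3 and 4. The 100 UMIs in pericytes came from 15 of 107 cells.

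The fibulin-like genes were lower. Efemp1 (chr11:28853204-28926743, plus strand), whose product fibulin-3 has a role in the elastic fibres of fascia, was found in bursal fibroblasts at 130.2, 0 and 99.7 CPM and in tendon fibroblasts 3 at 67.5 CPM. Tendon fibroblasts 2 stood at 41.0 CPM in library 1 and 0 in libraries 3 and 4, and tendon fibroblasts 1 had 0 of 1763104 UMIs, which allows up to 1.70 CPM. Library 3 has no UMI of Efemp1 in any cell, as Mfap4 has none in library 4. Efemp2 (chr19:5473954-5482517, plus strand) encodes fibulin-4, which brings lysyl oxidase to tropoelastin. Its level was 101, 49.8 and 57.0 CPM in bursal fibroblasts, 58.1, 55.4, 53.8 and 30.9 CPM in pericytes, and 61.5, 32.5 and 48.3 CPM in tendon fibroblasts 2. These 3 ranges overlap, and tendon fibroblasts 1 (24.8 ± 14.7 CPM) overlap the last of them. Endothelial cells 1 and 2 had 6.81 ± 6.62 and 1.31 ± 2.62 CPM.

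Emilin1 (chr5:30913402-30921277, plus strand) was found at low levels in most populations. In library 1 alone it stood at 77.8 CPM in endothelial cells 3 and 54.0 CPM in tendon fibroblasts 3. Its mean was 49.7 CPM in pericytes (26.9 to 70.8 over 4 libraries), 46.6 ± 1.75 in tendon fibroblasts 2 (n = 3), 39.3 ± 9.82 in endothelial cells 1, 28.9 ± 5.32 in tendon fibroblasts 1 and 21.7 ± 8.53 in endothelial cells 2 (n = 4 each). From pericytes on, each population overlaps the next. After thinning, the share of cells with a UMI was 5.75% in immune cells (5 of 87, exact 95% interval 1.89 to 12.9) and 5.59% in tendon fibroblasts 1, so that these 2 shares cannot be told apart. Red blood cells had 0 of 106. The levels from all UMIs did not overlap, with 11.2 ± 10.3 CPM in immune cells (0 to 20.4) and 22.9 to 35.0 CPM in tendon fibroblasts 1. Whether the immune share is free RNA or made by immune cells was not tested. Eln, Fbn1, Mfap4 and Efemp2 each overlap a gene on the other strand (Gm30003, Gm9913, Mapk7 and Mus81), and whether the counting used strand is not given in the sources used here.

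How many of the 10 genes a cell uses together was counted in the thinned cells, pooled over libraries, so these values describe cells and not replicates. Tendon fibroblasts 3 had a mean of 3.80 members per cell, and 34 of 46 cells (73.9%) had 3 or more. Before thinning, 45 of their 51 cells are from library 1, so population and library cannot be told apart there. Tendon fibroblasts 2 had 2.65, with 52.0% of cells at 3 or more, and endothelial cells 2 had 2.52, with 52.2%. Endothelial cells 3 had 2.03, with 37.5%, and bursal fibroblasts had 1.95, with 35.1%. Tendon fibroblasts 1 had 1.30 and pericytes 1.17, with 10.6% and 8.65% of cells at 3 or more, and immune cells had 0.138 and none. Over the 13 populations the members most alike in log2(mean CPM + 1) were Fbn1 and Fbln2 (Pearson r = 0.80), and the least alike were Eln and Mfap5 (r = -0.13). These correlations are a description, since the populations share libraries and depth.

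Library 1 stood apart from libraries 3 and 4 within tendon fibroblasts 2. Its Eln, Fbn1 and Mfap5 lie above the other libraries by more than their counting intervals, while for Fbln2 and Fbln5 the interval of library 1 lies above that of library 3 and overlaps that of library 4, and for Efemp2 and Emilin1 it overlaps both. Fbln1 was lowest in library 1, at 152 CPM (119 UMIs) against 269 CPM (231 UMIs) in library 3 and 169 CPM (21 UMIs) in library 4. The tendon gene Tnmd stood at 256 CPM in library 1 against 982 and 733 CPM in libraries 3 and 4, and Comp at 798 CPM against 3637 and 1957 CPM. Pi16, known from fibroblasts around vessels, which was singled out after its values were seen, was found in 19 of 67 cells in library 1 and in 0 of 78 and 0 of 9 cells in libraries 3 and 4. Cells with Pi16 held 34.6% of all UMIs of that sum and 59.8% of its Eln, 56.9% of its Fbn1 and 56.9% of its Mfap5 UMIs, with Fbn1 at 2900.3 CPM against 1159 CPM in the other cells. Mfap4 had 1 of 65 UMIs in cells with Pi16, but its UMIs were in 8 cells and 34 of them in 1 cell. By cells, 1 of 19 with Pi16 and 7 of 48 without it held Mfap4. The cells without Pi16 still had 192 CPM of Eln and 717 CPM of Mfap5, above libraries 3 and 4. Cells with Pi16 had more UMIs (median 14059 against 9390), and the part of depth in this split was not tested. The highest 7 of 67 cells for each gene held 72.5% of the Eln and 79.2% of the Pi16 UMIs in library 1. The part of the cells with Pi16 in the differences between libraries was not tested.

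**Figure D4:**
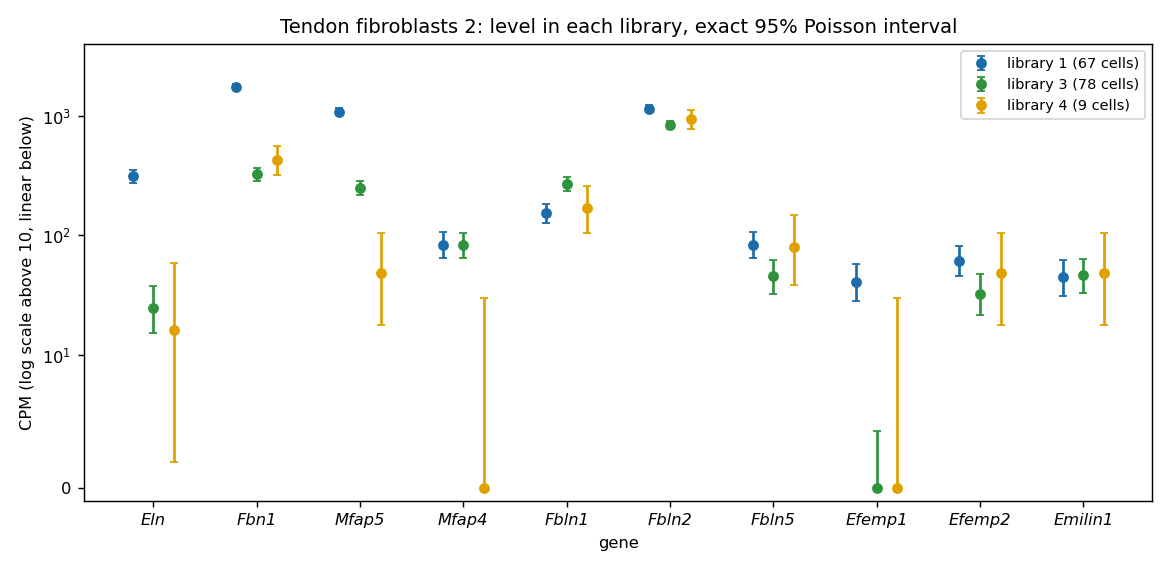
Level (CPM, y axis, log scale above 10 and linear below) of the 10 genes in tendon fibroblasts 2 of libraries 1, 3 and 4; points are levels and bars exact 95% Poisson intervals, which cover counting error only. Eln, Fbn1 and Mfap5 are highest in library 1 (313, 1761 and 1087 CPM).

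Tendon fibroblasts 1 and 2 were compared in libraries 1, 3 and 4, where each has 5 or more cells. Of 8 members tested, 4 were lower in tendon fibroblasts 1 and none was higher (none at an unadjusted p under 0.05 or with DESeq2 either), where 3.78% of the 7043 genes tested were lower, 4.19% higher and 7.97% called in either direction. The lower members were Mfap5, with means of 10.2 ± 6.09 and 462 ± 551 CPM (log2 difference -5.13 ± 0.39 SE, adjusted p by edgeR 9.62e-05), Eln (-3.15 ± 0.75, edgeR adjusted p = 0.0319), Fbln2 (-1.82 ± 0.21, edgeR adjusted p = 0.000924) and Fbln5 (-1.79 ± 0.31, edgeR adjusted p = 0.00661), each in 3 of 3 libraries. In library 4 the Eln difference rests on 2 UMIs in each population. In tendon fibroblasts 1, none of Mfap5, Eln and Fbln5 lay clear above the range of immune cells. The part of free RNA in these differences was not tested. Part of the cells carried much of these levels. The highest 16 of 156 tendon fibroblasts 2 held 84.3% of Eln, 68.4% of Mfap5 and 61.1% of Fbn1 UMIs. For Fbln2 and Fbln5 the highest 16 held 35.9% and 43.9%. After thinning, 16.9% of tendon fibroblasts 2 held a UMI of Eln and 38.5% one of Mfap5. The median log2 difference of the members tested was -1.56, against 0.00 for all genes tested. Without library 1, Mfap5 (-4.32), Fbln2 and Fbln5 were called and Eln fell under the filter on low counts; without library 4 Eln had an edgeR adjusted p of 0.0507. Fbn1, at 221 ± 20.1 against 837 ± 802 CPM, was lower in 3 of 3 libraries and did not pass (-1.32 ± 0.42, edgeR adjusted p = 0.101), but passed without library 3 (0.0169), in the unfiltered fit, in thinned cells and in the joint fit. Fbln1 did not differ beyond its error (0.09 ± 0.32, edgeR adjusted p = 0.941), and its direction turned with library totals in place of TMM (-0.10). Efemp2 (22.6 ± 17.2 against 47.5 ± 14.5 CPM) and Emilin1 (28.1 ± 6.22 against 46.6 ± 1.75 CPM) were lower in 3 of 3 libraries and did not pass. Mfap4 and Efemp1 were too low for the test, with 4 against 136 UMIs and 0 against 32 UMIs. Efemp1 was at least 9.88-fold higher in tendon fibroblasts 2, with a floor of 3 counts over the libraries of tendon fibroblasts 1, but all 32 UMIs were in library 1, and without it both populations are at 0.

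The rest of the pathway was followed with 25 genes listed by role: fibrillin-2, MAGP-1 and latent TGF-beta binding proteins, lysyl oxidases, EMILIN and multimerin relatives, other fibulins and hemicentins, ADAMTS-like proteins, and the 3 proteins of the elastin receptor complex. Of the 19 tested between tendon fibroblasts 1 and 2, 8 were lower in tendon fibroblasts 1 and 1 was higher, where 3.78% and 4.19% of all 7043 genes tested were. Lox, the lysyl oxidase that crosslinks collagen and elastin, was the one higher, at 2084 ± 556 against 230 ± 80.4 CPM (log2 difference 3.35 ± 0.26, edgeR adjusted p = 0.0001). The largest falls were in the hemicentin Hmcn2, with 0 against 82 UMIs, at least 25.3-fold lower, and in Adamtsl5, with 1 against 62 UMIs, a ratio of 57.4 (exact 95% interval 9.93 to 2305) in favour of tendon fibroblasts 2. Of the 5 lysyl oxidases, all tested, 1 was higher and 1 lower. The lower one was Loxl1, singled out after its values were seen, at 11.3 ± 6.98 against 237 ± 197 CPM. Its known role is in elastin crosslinking.

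Bursal fibroblasts, cells of the fluid-filled pad beside the tendon, were compared with tendon fibroblasts 1 in the same libraries. The fibulins were divided: Fbln1 (183 ± 96.3 against 5.64 ± 9.76 CPM, log2 difference 4.38 ± 0.53, edgeR adjusted p = 4.47e-05) and Fbln2 (241 ± 55.1 against 35.4 ± 15.4 CPM, 2.75 ± 0.37, edgeR adjusted p = 0.000123) were higher in tendon fibroblasts 1. Fbln5 was lower there, with 16.5 ± 5.22 CPM against 276 ± 80.6 (-3.81 ± 0.35, edgeR adjusted p = 4.37e-06), as was Efemp2 (-1.45 ± 0.42, edgeR adjusted p = 0.0289), whose call ended without library 1 (0.175) or library 4 (0.0782), with DESeq2 and with rebuilt clusters. Thus 2 of 6 members tested were higher and 2 lower, where 8.99% and 5.98% of 5186 genes were (15.0% in all). The Fbln5 level of tendon fibroblasts 1 was not above that of immune cells. Efemp1, with 0 against 91 UMIs, was at least 59.6-fold higher in bursal fibroblasts (at least 19.5-fold without library 1, with 14 UMIs) and was too low for the test, as were Eln (15 against 95 UMIs), Mfap5 (19 against 13 UMIs) and Mfap4 (4 against 0 UMIs). Fbn1 (0.41 ± 0.37) and Emilin1 (0.71 ± 0.55) did not pass, and Fbn1 turned direction without library 3 (-0.0020). Of 15 pathway genes tested, 3 were higher in tendon fibroblasts 1 and 5 lower. Loxl4 (100 against 0 UMIs, at least 17.0-fold) and Lox (log2 fold change 6.29 ± 0.47) led the higher genes. Adamtsl5 (1 against 70 UMIs, a ratio of 138 in favour of bursal fibroblasts, exact 95% interval 23.9 to 5509) and fibulin-7 (Fbln7, 13.7 ± 7.74 against 367 ± 180 CPM) led the lower ones. Red cell transcripts in bursal fibroblasts ranged from 29.9 to 7528 CPM over libraries, and their part in these differences was not tested.

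Tendon fibroblasts 2 differed from bursal fibroblasts in 6 of 9 members tested, 4 higher and 2 lower, where 4.46% of 4960 genes were higher and 2.44% lower (6.90% in all). Higher were Mfap5 (log2 fold change 5.60 ± 0.55, edgeR adjusted p = 0.000143), Fbln2 (4.67 ± 0.42, edgeR adjusted p = 0.000112), Fbln1 (3.96 ± 0.61, edgeR adjusted p = 0.00235) and Fbn1 (1.89 ± 0.37, edgeR adjusted p = 0.00897). Lower were Fbln5 (-1.98 ± 0.30, edgeR adjusted p = 0.0023) and Efemp1 (-2.30 ± 0.58, edgeR adjusted p = 0.0464), the latter in 2 of the 3 libraries. Without library 1, 3 members were called (Fbln1, Fbln2 and Fbln5), Fbn1 had an edgeR adjusted p of 0.0653, and Mfap5 and Efemp1 were too low for the test. Fbn1 also missed without library 4 (0.0542), and Efemp1 without library 4 (0.134), with DESeq2 and with rebuilt clusters. With no library block, both missed (edgeR adjusted p = 0.128 and 0.256). Eln, at 118 ± 169 against 92.1 ± 61.7 CPM, did not differ beyond its error (-0.12 ± 0.56, edgeR adjusted p = 0.953), and its direction turned in the joint fit (0.20) and with rebuilt clusters (1.12). Efemp2 (-0.67 ± 0.36) and Emilin1 (1.09 ± 0.57) did not pass. Mfap4, with 136 against 0 UMIs, was at least 21.4-fold higher in tendon fibroblasts 2 (at least 5.79-fold without library 1, with 71 UMIs). Of 15 pathway genes tested, 2 were higher, Lox (2.90 ± 0.45) and Loxl3 (2.78 ± 0.55), and none was lower by edgeR, although 3 were at an unadjusted p under 0.05 (Emilin2, Fbln7 and Adamtsl5). These 3 comparisons share populations and are not independent of each other.

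Against pericytes, tendon fibroblasts 2 had more Fbn1, Mfap5, Fbln1 and Fbln2 and less elastin. Eln was lower in 3 of 3 libraries, at 118 ± 169 against 446 ± 246 CPM (log2 difference -2.24 ± 0.46, edgeR adjusted p = 0.00299), with a larger difference without library 1 (-3.36), and missed in the fit with no library block (0.179). Higher were Fbn1 (3.48 ± 0.46, edgeR adjusted p = 0.00012), Mfap5 (5.25 ± 0.50, edgeR adjusted p = 8.88e-06), Fbln2 (4.26 ± 0.43, edgeR adjusted p = 1.35e-05) and Fbln1, with 371 against 1 UMI, a ratio of 179 (exact 95% interval 31.9 to 7087). That is 4 of 8 members higher and 1 lower, where 11.1% and 12.0% of 5787 genes were (23.1% in all). Fbln5 did not pass (0.79 ± 0.65, edgeR adjusted p = 0.452). Mfap4 (136 against 0 UMIs, at least 21.9-fold higher, or at least 7.23-fold without library 1) and Efemp1 (32 against 0 UMIs, at least 5.15-fold higher) were too low for the test. Without library 1, Efemp1 is at 0 in both. Efemp2 (47.5 ± 14.5 against 47.6 ± 14.6 CPM) and Emilin1 (46.6 ± 1.75 against 45.8 ± 22.6 CPM) did not differ beyond their errors, and the direction of Emilin1 (0.04 ± 0.43) turned with library totals in place of TMM (-0.16). Of 15 pathway genes tested, 9 were higher and 1 lower. Fbln7 (339 against 1 UMI, a ratio of 164, exact 95% interval 29.2 to 6478) and Emilin2 (186 against 2 UMIs, a ratio of 44.9, 12.2 to 373) led the higher genes. The lower gene was Mmrn2, a multimerin of endothelium, with 3 against 78 UMIs, a ratio of 53.9 (17.8 to 267) in favour of pericytes, which also held 300 to 1143 CPM of endothelial markers.

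Pericytes and endothelial cells 1, the 2 wall layers of small vessels, did not differ in elastin beyond the spread. Eln was higher in pericytes in libraries 1 and 2 and lower in libraries 3 and 4 (log2 fold change 0.06 ± 0.34, edgeR adjusted p = 0.922), and its direction turned with library totals in place of TMM (-0.07). Efemp2 was higher in pericytes in 4 of 4 libraries, at 49.6 ± 12.6 against 6.81 ± 6.62 CPM (3.43 ± 0.57, edgeR adjusted p = 0.000956), and Fbn1 at 82.4 ± 21.6 against 38.5 ± 20.8 CPM (1.28 ± 0.32, edgeR adjusted p = 0.0105; 0.0568 without library 1). Fbln2 was lower in 4 of 4, at 58.6 ± 45.3 against 543 ± 153 CPM (-2.80 ± 0.39, edgeR adjusted p = 0.000304). So 2 of 6 members tested were higher and 1 lower, where 16.6% and 17.6% of 5493 genes were (34.2% in all). Without library 1, Fbln2 alone was called, and Efemp2 was too low for the test. Mfap5 (39 against 13 UMIs), Mfap4 (0 against 1), Fbln1 (1 against 2) and Efemp1 (0 against 3) were under the filter, and with no filter Mfap5 was higher in pericytes (log2 difference 2.16, edgeR adjusted p = 0.000715). The Mfap5 UMIs of pericytes were in libraries 1 and 2 (20 and 19), in 10 of 107 cells. In libraries 3 and 4 pericytes had 0 and endothelial cells 1 had 1 and 2 UMIs, so the direction was the opposite there. Emilin1 did not pass (0.78 ± 0.34, edgeR adjusted p = 0.102), except without library 3 (0.0455). Fbln5, at 55.1 ± 61.9 against 144 ± 91.5 CPM, was lower in 4 of 4 libraries and did not pass (-0.91 ± 0.59, edgeR adjusted p = 0.271), except with no filter on low counts. Of 7 pathway genes tested, the latent TGF-beta binding proteins Ltbp1 (2.67 ± 0.30) and Ltbp3 (1.51 ± 0.48) were higher in pericytes, and 3 were lower, led by Mmrn2 (-2.42 ± 0.26) and Ltbp4 (-1.93 ± 0.27), which aids elastin assembly.

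Within the endothelium, the venous population had more elastin and fibrillin. Endothelial cells 1 were lower than endothelial cells 2 in Eln (536 ± 106 against 1255 ± 94.6 CPM, log2 difference -1.34 ± 0.16, edgeR adjusted p = 1.02e-05) and in Fbn1 (38.5 ± 20.8 against 264 ± 29.3 CPM, -2.74 ± 0.28, edgeR adjusted p = 2.36e-06), in 4 of 4 libraries each and with no overlap. The Eln call missed in the joint fit of all populations (0.164), and held with DESeq2, in thinned cells and without each library in turn. Fbln2 was lower in 3 of 4 libraries (-0.74 ± 0.19, edgeR adjusted p = 0.0108), a call that ended without library 1 (0.125), without library 2 (0.0936), with DESeq2, in thinned cells and in the joint fit. Thus 3 of 5 members tested were lower and none higher (none at an unadjusted p under 0.05 or with DESeq2 either), where 10.5% and 7.74% of 5126 genes were (18.2% in all). Fbln5 and Emilin1 did not pass (0.26 ± 0.28 and 0.72 ± 0.40), and Fbln5 turned direction without library 4 (-0.02). The other 5 members had 13 UMIs or fewer in each population and were too low for the test. Of 7 pathway genes tested, Ltbp1 (-1.44 ± 0.37) and Mmrn2 (-0.56 ± 0.15) were lower and none was higher by edgeR, also at an unadjusted p under 0.05. Red cell transcripts summed higher in endothelial cells 1 than in endothelial cells 2 (132 to 5695 CPM against 50.5 to 378 CPM over libraries), and their part in these differences was not tested.

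**Figure D5:**
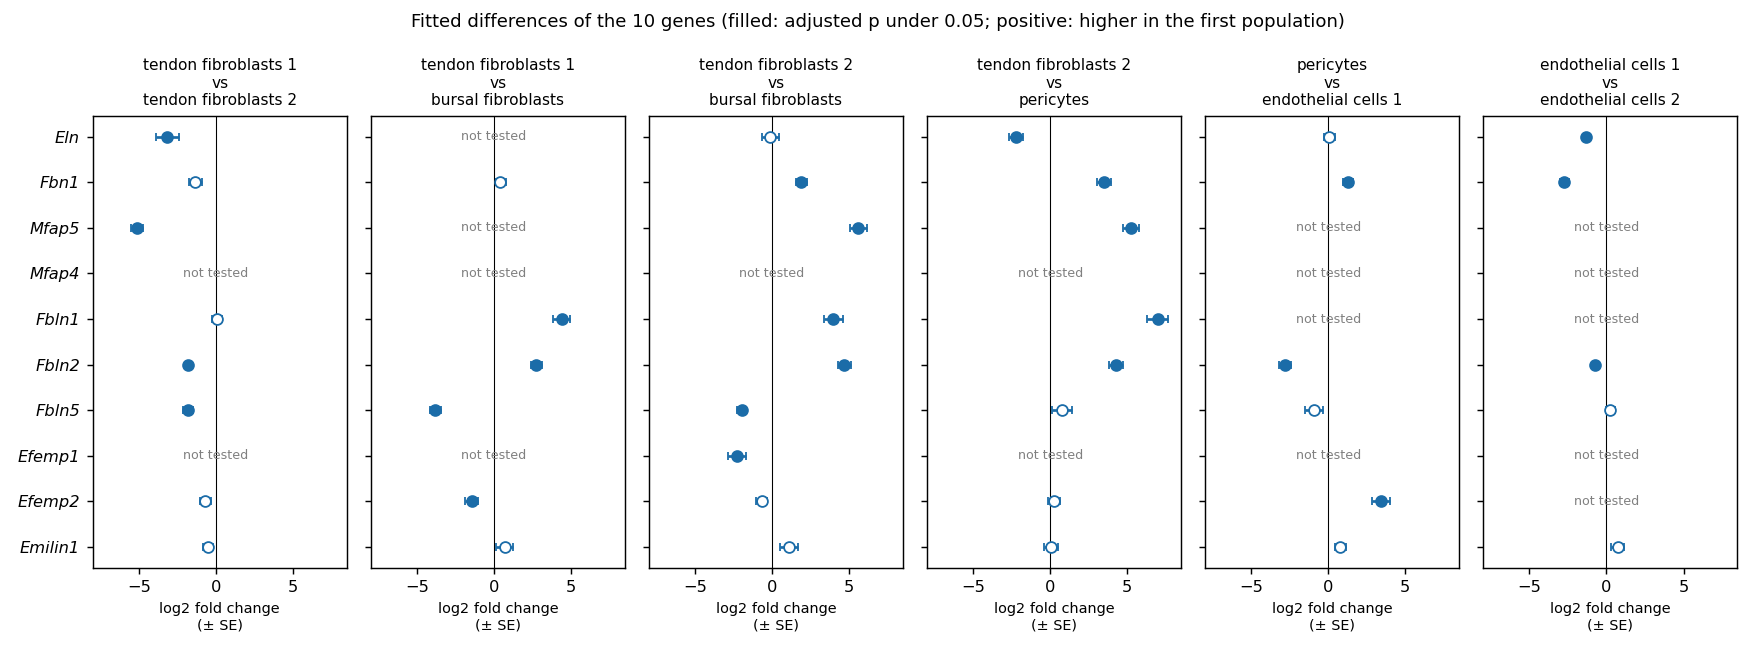
Fitted log2 fold changes (x axis, ± SE) of the 10 genes in the 6 comparisons, positive where the first population is higher; filled points passed an adjusted p of 0.05 and genes under the filter on low counts are marked as not tested. Mfap5 is far lower in tendon fibroblasts 1 than in 2 (-5.13), and Fbln1 and Fbln5 go opposite ways between tendon fibroblasts 1 or 2 and bursal fibroblasts.

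For each member, the 3 genes whose levels over the 13 populations were most like it were named among 7254 genes with 200 or more UMIs, by Pearson r of log2(mean CPM + 1). Eln was most like Ldb2 (0.93), the latent TGF-beta binding protein Ltbp4 (0.92) and Ramp2 (0.91). Fbn1 was most like Zfp9 (0.93), Ybx3 (0.93) and the procollagen protease Bmp1 (0.92). Mfap5 was most like Mme (0.89), Ogn (0.84) and Vit (0.83), and Mfap4 like Cpz (0.96), Pi16 (0.91) and Cpxm1 (0.86). Fbln1 was most like Clec11a (0.95), the cartilage and tendon regulator Sox9 (0.94) and Itgbl1 (0.93). Fbln2 was most like Socs2 (0.90), Nfib (0.90) and Npr2 (0.89). For Fbln5 they were Stx2 (0.97), an entry spelled 2-Sep in the table (0.94) and Sec16a (0.93). For Efemp1 they were Entpd2 (0.89), Mmp2 (0.85) and Gpnmb (0.84), for Efemp2 Gm9780 (0.94), Slit3 (0.93) and Tmem100 (0.93), and for Emilin1 Ginm1 (0.96), Tdrd3 (0.95) and Aaed1 (0.94). With 13 points that share libraries, such values are high for many genes and describe these populations only.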

How the data were processed

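Raw UMI counts per gene and cell, deposited by the authors with the total counts and a population name for each cell, were used for every value. The submitters' processing notes list Cell Ranger, Seurat 2.3.4, R 3.5.2 and the build mm10, without saying what each did. A second deposited table is on a natural log scale after scaling each cell to 1 total, as its values show, and gives no value printed here. The annotation, the cell filters and the treatment of doublets are not given in the sources used here, and no cell was removed. Of 15750 entries, 4 under repeated names were left out (0.0186% of UMIs). Libraries hold 1375111 to 5603366 UMIs.

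UMIs were summed per library and population (5 or more cells) and compared over 3 or more libraries by edgeR 4.0.16 (R 4.3.3, limma 3.58.1) and its quasi-likelihood test: TMM scaling, filterByExpr, the library as a block, and Benjamini-Hochberg adjustment over all genes tested, at 0.05. Both sums come from the same library, which pairs them by construction; their deviations correlated between -0.03 and 0.17 over genes. Intervals are exact (Poisson or Clopper-Pearson, 95%), floors are 3 counts, and both cover counting error only. Alternatives were DESeq2 1.42.0, library totals, no filter, no block, a minimum of 10 cells, cells thinned to 2400 or 1500 UMIs, a joint fit of all populations, each library left out, and clusters rebuilt without these genes in scanpy 1.11.5 (23 clusters, 95.5% of cells under the same name). Each rebuilt cluster took the authors' name most common in it, so the share of cells under the same name is high by construction. The authors' populations rest on counts that include these genes. The script was tested on simulated data. Python 3.11.15, numpy 2.4.6, pandas 2.3.3 and scipy 1.17.1 did the rest.

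The members, the pathway list, the comparisons and the marker lists were chosen with earlier results of these data known. In each comparison all members are given, and of the 25 pathway genes the 2 largest rises and the 2 largest falls among those called. Some marker genes of the nerve populations are not reported here.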

Additional observations from a re-analysis of the deposited data

Results flagged for a closer look

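In 43 sets of 4 libraries (levels and shares of 20 or more UMIs), the gap of the highest or lowest library to its neighbour was set against the range; 3 exceeded the limit of Dixon's test, and chance alone gives about 1 in 20. The level of Efemp2 in pericytes was 30.9 CPM in library 4 (7 UMIs) against 53.8 to 58.1 CPM in the other libraries. Tendon fibroblasts held 7.58% of the Mfap5 UMIs in library 2, where 14 of 246 cells are tendon fibroblasts. They held 96.3% of the Fbln1 UMIs in library 1, the lowest of the 4 libraries.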

How the results depend on the processing

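Of 25 calls on members, 17 held under every alternative in which the gene could be tested, and the others are named with their values in the report; the share of the members' UMIs held by tendon fibroblasts (45.3%) ranged from 34.1% to 57.3% without each library in turn and was 53.1% pooled and 44.2% in thinned cells.

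Without the filter on low counts, the genes called were 1073 for tendon fibroblasts 1 against 2 (561 in the report's fit; members 7 against 4), 1216 for tendon fibroblasts 1 against bursal fibroblasts (776), 727 for tendon fibroblasts 2 against bursal fibroblasts (342) and 2918 for pericytes against endothelial cells 1 (1879; members 5 against 3). Thinning, which leaves fewer UMIs, gave 271 (members 2) for tendon fibroblasts 1 against 2, 484 (members 3, against 5) for tendon fibroblasts 2 against pericytes, 495 (members 1) for pericytes against endothelial cells 1 and 294 for the endothelial pair (934). DESeq2 gave 371 for tendon fibroblasts 1 against 2, 503 for tendon fibroblasts 1 against bursal fibroblasts and 570 for the endothelial pair. The joint fit gave 7 members for tendon fibroblasts 1 against 2, 705 genes for tendon fibroblasts 2 against bursal fibroblasts, 2158 for tendon fibroblasts 2 against pericytes (1335), and 534 genes with 1 member (against 3) for the endothelial pair.

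Leaving out each library in turn gave 330 to 916 genes for tendon fibroblasts 1 against bursal fibroblasts, 149 to 412 (members 3 to 6) for tendon fibroblasts 2 against bursal fibroblasts, 621 to 1536 for tendon fibroblasts 2 against pericytes, 1 to 4 members for pericytes against endothelial cells 1, and 488 to 1003 genes for the endothelial pair; the lowest value came without library 1 in all of these but the last, where it came without library 2 (618 without library 1).

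Fold changes that turned direction were all without a call. Eln in tendon fibroblasts 2 against bursal fibroblasts was 0.30 without the replicate block, 0.20 in the joint fit, 1.12 with rebuilt clusters and -0.13 to 0.77 with a library left out. Eln in pericytes against endothelial cells 1 was -0.066 with library totals, -0.039 unfiltered, -0.11 in the joint fit and -0.33 to 0.37 with a library left out. Fbln1 in tendon fibroblasts 1 against 2 was -0.10 with library totals and -0.46 to 0.38 with a library left out. Emilin1 in tendon fibroblasts 2 against pericytes was -0.16 with library totals and -0.23 to -0.051 with a library left out. Fbn1 in tendon fibroblasts 1 against bursal fibroblasts was -0.0020 to 1.04 with a library left out, and Fbln5 in the endothelial pair was -0.020 with a minimum of 10 cells and -0.020 to 0.43 with a library left out. The cause of these changes was not tested.

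Without the replicate block, calls ended for Fbn1 and Efemp1 in tendon fibroblasts 2 against bursal fibroblasts (members 4 against 6) and for Eln in tendon fibroblasts 2 against pericytes, and no other member's call changed. A minimum of 10 cells could not be run for the comparisons with tendon fibroblasts 2 or bursal fibroblasts, nor thinning for those with bursal fibroblasts. The bounds on Efemp1 and Mfap4 without library 1, in the report, were computed after the data were seen. Few cells per library limit most values of bursal fibroblasts and of tendon fibroblasts 2 in library 4.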

Other observations

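Within endothelial cells 1, Fbln5 was concentrated in cells with arterial transcripts. The 113 cells with a UMI of Gja5, Sema3g or Hey1, a split chosen after values were seen, held 272 of the 283 Fbln5 UMIs (96.1%) and 72.2% of all UMIs. In libraries 1 to 4 Fbln5 stood at 172, 134, 114 and 343 CPM in these cells and at 8.54, 39.6, 19.7 and 15.3 CPM in the 77 others, so it was higher with the markers in 4 of 4 libraries. Eln did not follow the same split, at 495 ± 159 against 546 ± 253 CPM and higher in 2 of 4 libraries, and Fbn1 stood at 40.1 ± 16.0 against 39.8 ± 46.0 CPM, higher in 3 of 4. Cells with the markers had more UMIs (median 9883 against 5229), and the part of depth in the split was not tested.

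Lox, which crosslinks collagen and elastin, was also high in the nerve populations that carry Mfap5: it averaged 1127 CPM in nerve cells 1 and 416 CPM in nerve cells 2. Tendon fibroblasts 1 averaged 1983 CPM, and nerve cells 3 averaged 15.5 CPM. Multimerin-1 (Mmrn1), of the EMILIN family, stood at 2207 CPM in endothelial cells 3 and at no more than 23.2 CPM in any other population.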
